A study of Mus musculus with 32 samples.

Results

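Pigment genes were followed through RNA of the cerebral cortex of 32 mice aged 6 weeks. Of the 55401 genes in the count table, 8 are described here, taken by symbol: Tyr, a (nonagouti), Tyrp1, Dct, Slc45a2, Oca2, Mc1r and Mitf. Tyr and a were chosen on their counts, which earlier results of these data had shown in aneuploid libraries and not in +/+ libraries, so their levels across the genotypes are a description with no test. The other 6 were added as pigment genes for contrast.

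The libraries came from 10 Ts65Dn;Df(17)2 mice (5 females and 5 males by label), 10 Dp(16)1/Df(16)8 mice (5 females and 5 males by label) and 12 +/+ mice (6 and 6), each mouse with its own number. As background, Ts65Dn is a freestanding additional chromosome that joins distal chromosome 16 to the centromeric end of chromosome 17, whereas Dp(16)1 holds the chromosome 16 region as a tandem duplication. Df(17)2 and Df(16)8 are deletions that compensate for what only 1 of these forms would add. Ts65Dn;Df(17)2 mice are also called trisomic here and Dp(16)1/Df(16)8 mice duplication mice, after the form of their added chromosome 16 material. The labels give neither coat colour nor strain background.

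Libraries of trisomic mice held 6392531 to 11189548 counts, those of duplication mice 5795479 to 9149196 and those of +/+ mice 6375698 to 8532009. Of 10 listed genes of the added chromosome 16 region, 10 rose in each aneuploid genotype, with a median log2 fold change of 0.56 in trisomic mice and 0.57 in duplication mice. Over all 16042 tested genes, 3.97% passed the threshold (an adjusted p under 0.05) in Ts65Dn;Df(17)2 against +/+ and 0.573% in Dp(16)1/Df(16)8 against +/+. The tissue label was met by the cortical glutamate transporter gene Slc17a7, at 353.1 to 1218 CPM (counts scaled to library size), and striatal markers were present as well, as given beside the results. Replicate 2 of the duplication mice, a library labelled female, had 14 counts of Xist and 696 of the Y-linked Ddx3y, against its label. Trisomic replicates 4 and 5 came from mice numbered far below the others.

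Melanin is made in melanosomes, organelles of pigment cells. Tyrosinase, the product of Tyr, carries out the rate-limiting oxidation of tyrosine, the related enzymes of Tyrp1 and Dct act later in eumelanin synthesis, and the transporters of Slc45a2 and Oca2 keep the melanosome fit for tyrosinase activity. In the skin, the melanocortin receptor of Mc1r switches melanocytes to dark eumelanin. The agouti signalling protein encoded by a antagonises that receptor and gives yellow pheomelanin, and the transcription factor of Mitf switches on the enzyme genes. As further background, vectors used for chromosome engineering in mice can carry a tyrosinase or an agouti gene as a coat colour marker, beside parts of Hprt and promoters of Pgk1 or Krt14. Whether the chromosomes of these mice carry such a marker is not stated in the labels and was not tested, and a count per gene does not tell transcripts of the native locus from those of a copy elsewhere.

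The windows around the transcription starts show a sequence by which the enzyme genes are known to be switched on in pigment cells. RefSeq windows (GRCm38.p6, 250 bases before to 50 bases after the start) were found for 7 of the 8 genes, and that of Slc45a2 was not. The sequences shown are those of the enzyme genes and, for contrast, of a, each 5′ to 3′ on the strand of its gene. Tyr is at chr7:87493463-87493762 (minus strand), Tyrp1 at chr4:80833963-80834262 (plus), Dct at chr14:118052197-118052496 (minus) and a at chr2:155013320-155013619 (plus). Capitals mark the 10-base run GTCATGTGCT, the longest shared by the 3 enzyme windows, and any other CATGTG or its reverse CACATG.
Tyr promoter: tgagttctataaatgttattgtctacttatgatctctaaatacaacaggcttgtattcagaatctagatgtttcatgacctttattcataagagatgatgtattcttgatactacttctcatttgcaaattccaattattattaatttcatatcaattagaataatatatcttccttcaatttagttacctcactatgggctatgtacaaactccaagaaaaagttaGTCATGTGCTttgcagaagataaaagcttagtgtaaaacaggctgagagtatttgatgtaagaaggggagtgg
Tyrp1 promoter: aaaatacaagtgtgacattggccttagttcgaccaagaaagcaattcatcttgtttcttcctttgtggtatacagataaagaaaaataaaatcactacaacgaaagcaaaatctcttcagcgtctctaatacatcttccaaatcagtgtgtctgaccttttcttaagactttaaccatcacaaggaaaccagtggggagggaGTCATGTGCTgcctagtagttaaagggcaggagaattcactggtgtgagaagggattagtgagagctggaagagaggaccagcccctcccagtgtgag
Dct promoter: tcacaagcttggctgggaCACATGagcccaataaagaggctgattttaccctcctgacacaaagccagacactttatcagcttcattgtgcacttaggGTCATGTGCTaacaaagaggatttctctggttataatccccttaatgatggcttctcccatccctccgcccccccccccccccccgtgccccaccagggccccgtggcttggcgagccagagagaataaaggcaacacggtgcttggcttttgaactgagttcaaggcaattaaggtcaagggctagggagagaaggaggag
a promoter: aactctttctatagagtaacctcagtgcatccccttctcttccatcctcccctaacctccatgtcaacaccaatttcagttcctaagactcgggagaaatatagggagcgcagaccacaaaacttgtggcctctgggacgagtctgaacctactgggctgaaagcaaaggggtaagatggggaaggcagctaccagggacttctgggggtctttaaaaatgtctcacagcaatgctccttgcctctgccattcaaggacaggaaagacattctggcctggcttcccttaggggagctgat
The shared run is part of the M-box, an element known to be bound by MITF. It starts 23 bases before the start of Tyr, 48 before that of Tyrp1 and 152 before that of Dct. Of 32851 windows of this length, 61 (0.186%) held it on either strand, and since the run was read from these windows that share is a description. The core CATGTG, which lies inside the run, was in 4650 windows (14.2%) on either strand, among them those of Oca2 and Mc1r. The windows of a and Mitf held neither.

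Tyr was abundant in every trisomic library and at a few counts elsewhere. Tyr (ENSMUSG00000004651.6, chr7:87424771-87493512 on the minus strand, GRCm38) has 7108 exonic bases, 0 of them shared with another gene. In Ts65Dn;Df(17)2 its counts were 168, 118, 130, 101, 120, 138, 119, 75, 88 and 121 in replicates 1 to 10, with a median of 119.5. In Dp(16)1/Df(16)8 they were 3, 4, 7, 2, 3, 4, 5, 5, 3 and 2, with a median of 3.5, against 0 in 7 of the 12 +/+ libraries, 1 in 3 of them, and 2 and 3 in the remaining libraries. Every trisomic library was above every duplication and every +/+ library, while the lowest duplication libraries lay within the +/+ range. The wording by which Tyr was chosen thus held for it in degree only, since 5 of 12 +/+ libraries had a count.

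Scaled for depth, Tyr averaged 14.3 ± 2.34 CPM in trisomic mice (SD, n = 10), 0.509 ± 0.187 CPM in duplication mice (n = 10) and 0.0907 ± 0.126 CPM in +/+ mice (n = 12). The summed counts were 1178 in trisomic, 38 in duplication and 8 in +/+ libraries. Per unit of depth, the ratio of Ts65Dn;Df(17)2 to +/+ was 159.8 (95% exact binomial interval 80.8 to 371), that of Dp(16)1/Df(16)8 to +/+ was 5.76 (2.65 to 14.3), and that of trisomic to duplication libraries was 27.8 (20.1 to 39.4). These intervals cover counting error only and leave out the spread between mice. PCR reads without molecular identifiers are also not independent molecules. As Tyr was chosen on its counts by genotype, the intervals are no test. Within trisomic mice the coefficient of variation was 16.4%, against 9.31% that counting alone would give at this depth. Without the low-numbered replicates 4 and 5, whose own counts were 101 and 120, the trisomic mean was 14.6 CPM.

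Because Tyr was chosen from these contrasts, nothing is read from its place among all genes, which is given as a description. Of 32338 genes with any count, 53 (0.164%) were higher in every trisomic library than in every +/+ library, and 6 (0.0186%) were higher in every trisomic library than in every duplication library. A stricter rule asked for at least 10 counts in every library of an aneuploid genotype and at most 3 in every +/+ library. It took 3 of 55401 genes (0.00542%) in Ts65Dn;Df(17)2, namely Tyr, C87487 and Gm49806, and 0 in Dp(16)1/Df(16)8. The reverse pattern was met by 0 genes in both. Tyr reached the upper bound of that rule in +/+ with 3 counts in 1 library.

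The gene a showed the other order of the aneuploid genotypes, at much lower counts. It encodes the agouti signalling protein (ENSMUSG00000027596.10, chr2:154791402-155051012 on the plus strand), and 147 of its 1169 exonic bases (12.6%) are shared with the RNA-binding protein gene Raly on the same strand. Counts of a were 7, 5, 2, 9, 0, 3, 5, 7, 5 and 1 in Ts65Dn;Df(17)2 replicates 1 to 10, with a median of 5. In Dp(16)1/Df(16)8 they were 8, 3, 13, 2, 11, 7, 16, 13, 6 and 8, with a median of 8, against 0 in each of the 12 +/+ libraries. Every duplication library was thus above every +/+ library, as were 41 of the 32338 genes with a count (0.127%), whereas 1 of the 10 trisomic libraries was at 0.

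Levels of a averaged 0.547 ± 0.366 CPM in trisomic mice (SD, n = 10) and 1.17 ± 0.553 CPM in duplication mice (n = 10). The 0 counts in +/+ were given a floor of 0.0335 CPM (3 counts over the 12 libraries), and the upper end of their 95% exact Poisson interval was 0.041 CPM. The summed counts were 44 in trisomic and 87 in duplication libraries. Set against that floor over the group, a was 15.9-fold higher in Ts65Dn;Df(17)2 and 35.2-fold higher in Dp(16)1/Df(16)8. These are no lower bounds, since counting error in the aneuploid libraries is left out and a was chosen on this contrast. The ratio of trisomic to duplication libraries was 0.453 (95% exact binomial interval 0.308 to 0.658), and the ranges of these genotypes overlapped. The coefficient of variation of a was 66.8% in trisomic mice, where counting alone would give 47.5%, and 47.5% in duplication mice, where counting alone would give 34.4%. Besides being chosen on these contrasts, a failed the filter on low counts.

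Compared per kilobase of exon, Tyr stood at 2.01 CPM and a at 0.456 CPM in the pooled trisomic libraries. In the pooled duplication libraries the order was turned round, with 0.0723 CPM per kilobase for Tyr and 1.01 for a, against 0.0126 for Tyr and 0 for a in +/+. More counts of Tyr than of a were found in 10 of 10 trisomic libraries, 1 of 10 duplication libraries and 5 of 12 +/+ libraries.

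**Figure D1:**
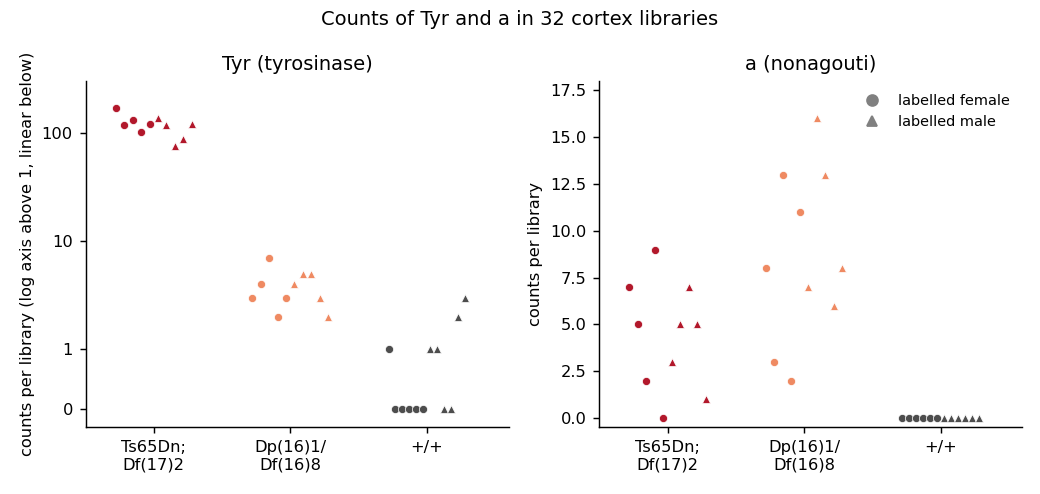
Counts of Tyr (left, log axis above 1 and linear below) and a (right, linear axis) in each library, by genotype. Each point is 1 mouse, with circles for libraries labelled female and triangles for those labelled male. Tyr lies at 75 to 168 counts in Ts65Dn;Df(17)2, at 2 to 7 in Dp(16)1/Df(16)8 and at 0 to 3 in +/+, and a at 0 to 9 in trisomic, 2 to 16 in duplication and 0 in +/+ libraries.

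Sex was not used to choose either gene, and no difference between males and females passed a test. Tyr averaged 14.5 ± 3.07 CPM in males and 14.03 ± 1.65 CPM in females of Ts65Dn;Df(17)2 (SD, n = 5 each). The log2 difference was 0.05 (standard error 0.18) with an adjusted p of 0.999 in edgeR's quasi-likelihood F test, in which 9 of all genes (0.0561%) passed. In Dp(16)1/Df(16)8, Tyr averaged 0.527 ± 0.12 CPM in males and 0.490 ± 0.253 CPM in females (n = 5 each), with a log2 difference of 0.13 (standard error 0.41, edgeR adjusted p = 1). The male and female ranges of Tyr overlapped in both aneuploid genotypes. Males of the duplication mice had 50 counts of a and females 37, or 1.38 ± 0.43 CPM in males and 0.947 ± 0.621 CPM in females (n = 5 each, exact two-sided permutation test p = 0.262, adjusted over both genotypes 0.524). Trisomic males had 21 counts of a and trisomic females 23, or 0.593 ± 0.364 CPM in males and 0.501 ± 0.404 CPM in females (n = 5 each, exact two-sided permutation test p = 0.714, adjusted 0.714). The smallest p these exact tests can give is 0.00794. Without the library against its label, the females of the duplication mice averaged 1.1 ± 0.598 CPM of a (n = 4, exact permutation p = 0.492).

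The enzymes that work beside tyrosinase stayed at a few counts in every genotype. Tyrp1 (chr4:80834123-80851719) had summed counts of 18 in trisomic, 3 in duplication and 8 in +/+ libraries, with any count in 8 of 10 trisomic, 2 of 10 duplication and 5 of 12 +/+ libraries. Of the 18 counts, 7 came from trisomic replicate 6, and the other libraries of all genotypes held 0 to 3. Per unit of depth the ratio of Ts65Dn;Df(17)2 to +/+ was 2.44 (95% exact binomial interval 1.01 to 6.49) and that of Dp(16)1/Df(16)8 to +/+ was 0.455 (0.0777 to 1.89). That of trisomic to duplication libraries was 5.37 (1.57 to 28.5). Tyrp1 failed the filter on low counts. With no filter, its adjusted p in edgeR's quasi-likelihood F test was 0.341 in trisomic against +/+ mice (unadjusted 0.0484) and 0.794 between the aneuploid genotypes (unadjusted 0.00691).

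Dct, dopachrome tautomerase (chr14:118012790-118052244), was counted in most libraries of every genotype. Its counts ran from 0 to 7 with a median of 1 in trisomic mice, from 0 to 3 with a median of 1 in duplication mice and from 0 to 8 with a median of 2 in +/+ mice. The sums were 25 in trisomic, 13 in duplication and 35 in +/+ libraries, and the ranges overlapped in every pair of genotypes. The ratio of Dp(16)1/Df(16)8 to +/+ was 0.45 (95% exact binomial interval 0.219 to 0.872), with an adjusted p of 0.548 (unadjusted 0.0472) in edgeR's test with no filter. The ratio of Ts65Dn;Df(17)2 to +/+ was 0.775 (0.445 to 1.33).

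The melanosomal transporters and the receptor were near 0 as well. Slc45a2 (chr15:11000721-11029233) had 2 counts in all trisomic libraries, 2 in all duplication libraries and 4 in all +/+ libraries, never more than 1 in a library. Oca2 (chr7:56239760-56536518), which lies on the same chromosome as Tyr, had sums of 24 in trisomic, 26 in duplication and 32 in +/+ mice, with up to 7 counts in a trisomic library, 8 in a duplication library and 12 in a +/+ library. Mc1r (chr8:123407107-123410744), the receptor that the product of a antagonises, had sums of 4 in trisomic, 4 in duplication and 11 in +/+ mice. Of its 3638 exonic bases, 653 (17.9%) overlap the antisense gene Gm38092, from which reads cannot be told apart without a known strand setting. All 3 genes overlapped between every pair of genotypes. Ratios of Ts65Dn;Df(17)2 to +/+ were 0.543 (95% exact binomial interval 0.0491 to 3.79) for Slc45a2, 0.814 (0.459 to 1.43) for Oca2 and 0.395 (0.0916 to 1.33) for Mc1r. With no filter, the edgeR adjusted p was at least 0.49 for each of these 3 genes in each contrast between genotypes.

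Mitf was well measured. It encodes a factor also expressed outside pigment cells (chr6:97807052-98021349), and it was 1 of only 2 of the 8 genes that passed the filter on low counts. The other, Tyr, passed through its trisomic libraries. Mitf counts ran from 81 to 138 with a median of 114.5 in trisomic mice, from 77 to 144 with a median of 93.5 in duplication mice and from 62 to 114 with a median of 85 in +/+ mice. The 3 ranges overlapped widely. Mitf averaged 13.7 ± 2.56 CPM in trisomic (SD, n = 10), 13.7 ± 3.27 CPM in duplication (n = 10) and 11.8 ± 2.21 CPM in +/+ mice (n = 12). Against +/+ its log2 fold change was 0.21 in Ts65Dn;Df(17)2 (standard error 0.12, edgeR adjusted p = 0.307) and 0.22 in Dp(16)1/Df(16)8 (standard error 0.12, edgeR adjusted p = 0.449), neither past the threshold. The aneuploid genotypes differed in Mitf by a log2 value of -0.005 (standard error 0.13, edgeR adjusted p = 1), in a contrast where 8 of the tested genes (0.0499%) passed. Per kilobase of exon Mitf averaged 2.21 CPM in trisomic libraries, beside 2.01 CPM for Tyr in the same libraries.

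**Figure D2:**
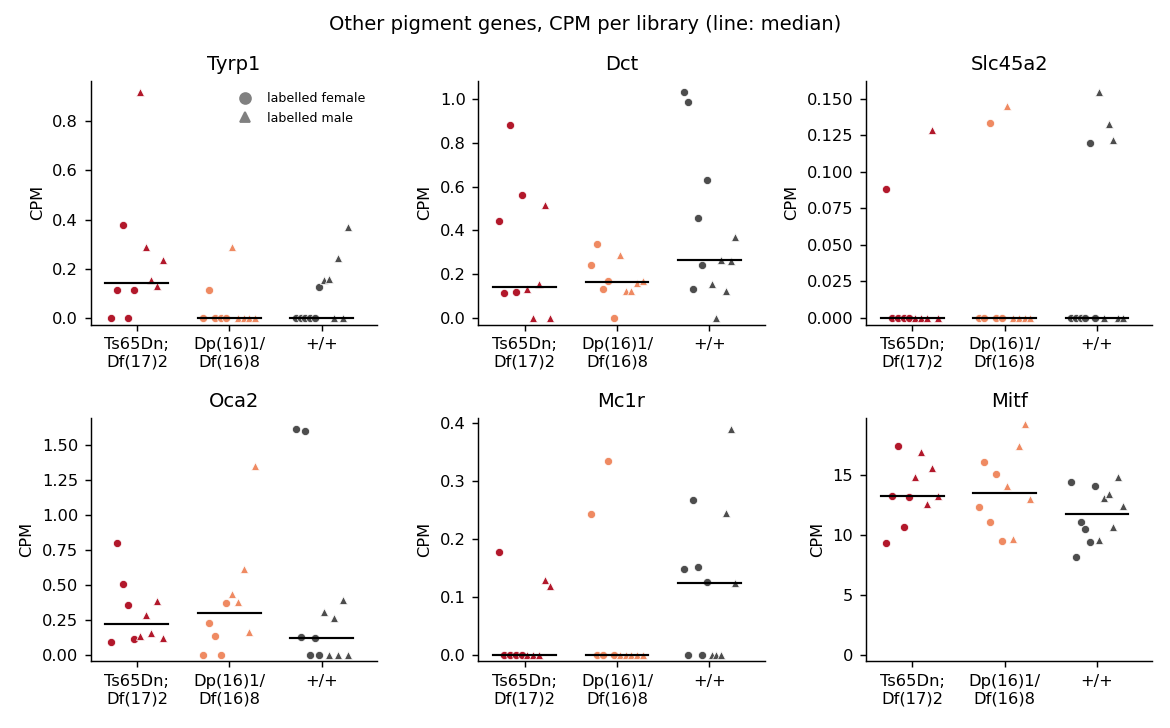
CPM of the other 6 pigment genes in each library, by genotype. Each point is 1 mouse (circles labelled female, triangles labelled male), the line is the median, and each panel has its own linear axis. Mitf lies between 8.12 and 19.2 CPM in all genotypes, while the other 5 genes reach at most 1.62 CPM and overlap between genotypes.

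Markers of pigment cells, skin and eye were read out in all genotypes. In bulk RNA, fewer cells of a type and less RNA per cell cannot be told apart. The 7 melanocyte markers Pmel, Mlana, Gpr143, Slc24a5, Trpm1, Tyrp1 and Dct summed to 0.590 to 1.89 CPM per library in trisomic mice, 0.246 to 1.16 in duplication mice and 0.389 to 1.62 in +/+ mice. The melanosome matrix gene Pmel had 13 counts in all trisomic libraries, 9 in all duplication libraries and 16 in all +/+ libraries, and Mlana had 1 in trisomic, 0 in duplication and 2 in +/+ libraries. The summed melanocyte level overlapped between the genotypes. The 6 markers of skin and hair summed to 5.82 to 10.05 CPM in trisomic (median 7.21), 3.04 to 8.97 in duplication (median 5.48) and 2.43 to 7.88 in +/+ libraries (median 5.30). Among them, Krt5 had 0 counts in all 32 libraries, and Krt14 had 4 in trisomic, 0 in duplication and 3 in +/+ libraries. Of the 3 that were tested, 0 passed in either contrast with +/+. Over all tested genes, 3.97% passed in trisomic and 0.573% in duplication mice. Krt10 had a log2 fold change of 0.54 in trisomic (standard error 0.24, edgeR adjusted p = 0.171) and 0.30 in duplication mice (standard error 0.24, edgeR adjusted p = 0.619). Lor, the cornified envelope gene loricrin, had 0.35 in trisomic (standard error 0.26, edgeR adjusted p = 0.456) and -0.28 in duplication mice (standard error 0.28, edgeR adjusted p = 0.698). Krt1 was below 0 in both, at -0.09 in trisomic (standard error 0.264, edgeR adjusted p = 0.886) and -0.37 in duplication mice (standard error 0.275, edgeR adjusted p = 0.586). The 5 markers of eye pigment epithelium summed to 9.44 to 15.4 CPM in trisomic, 7.69 to 14.3 in duplication and 5.97 to 14.1 in +/+ libraries. Only 1 of these 5, Rlbp1, was abundant enough to test. Its log2 fold change was -0.01 (standard error 0.149, edgeR adjusted p = 0.975) in trisomic and -0.10 (standard error 0.151, edgeR adjusted p = 0.816) in duplication mice. The part of these cell types in the levels of Tyr and a was not tested.

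Striatal and cortical markers differed between libraries. The 9 striatal markers summed to a median of 1623 CPM in trisomic mice, 1667 in duplication mice and 443.6 in +/+ mice, and 0 of the 9 passed the test in either contrast with +/+. Single libraries ran from 533.1 to 2231 CPM in trisomic, from 162.7 to 2509 in duplication and from 118.5 to 2515 in +/+ mice. The 8 cortical markers summed to medians of 1166 CPM in trisomic, 1177 in duplication and 1766 in +/+ mice, and 5 of the 8 fell in trisomic mice, where 3.97% of all tested genes passed, while 0 passed in duplication mice, where 0.573% did. The 8 meningeal markers summed to medians of 464.2 CPM in trisomic, 377.6 in duplication and 319.8 in +/+ mice, with 1 of the 8, the collagen gene Col3a1, past the threshold and higher in trisomic mice, and 0 in duplication mice. The 5 choroid plexus markers ran from 23.4 to 99.9 CPM in trisomic (median 39.2), from 9.37 to 670.7 in duplication (median 34.7) and from 12.96 to 1004 in +/+ libraries (median 26.7). Of these, 4 were tested and 0 passed, with a median log2 fold change of -0.94 in trisomic and -0.03 in duplication mice. The part of tissue composition in the levels of Tyr and a was not tested.

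In the wider pigment pathway, described by 6 lists, 1 gene passed the threshold in trisomic mice and 0 in duplication mice. In melanin synthesis, 0 of the 6 listed genes beside Tyr were abundant enough to test. Of 9 genes of melanosome structure and transport 5 were tested, of which 1 rose in trisomic mice, where 3.97% of all tested genes passed, and 0 in duplication mice, where 0.573% did. Their median log2 fold changes were 0.04 in trisomic and -0.01 in duplication mice, beside 0.005 and 0.001 over all tested genes. The riser was Rab27a, the small GTPase that tethers melanosomes to actin and also serves secretion in other cells. It averaged 12 ± 3.4 CPM in trisomic (SD, n = 10), 9.7 ± 2.37 CPM in duplication (n = 10) and 7.96 ± 2.27 CPM in +/+ mice (n = 12). Its log2 fold change in Ts65Dn;Df(17)2 against +/+ was 0.60 (standard error 0.17, edgeR adjusted p = 0.039), and its ranges overlapped, from 7.05 to 18.01 CPM in trisomic and from 4.25 to 11.2 CPM in +/+ mice. In edgeR the call ended with no filter (adjusted p = 0.0542), without the low-numbered trisomic mice (0.0845) and with the striatal score as a term (0.205).

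Other pigment-related lists held 0 genes past the threshold in either aneuploid genotype, beside the 3.97% and 0.573% of all tested genes. Of the genes of lysosome-related organelles, such as the Hermansky-Pudlak gene Hps1, 12 of 12 were tested, with a median log2 fold change of -0.02 in each aneuploid genotype. Of melanocortin signalling, 5 of 10 genes were tested (median -0.07 in trisomic and -0.06 in duplication mice). Of melanocyte regulators such as Sox10 and Kit, 7 of 9 were tested (0.06 in trisomic and -0.02 in duplication mice), and of the Mitf family 3 of 4 (0.01 in trisomic and -0.02 in duplication mice). Among the melanocortin genes, the neural receptor Mc4r had log2 fold changes of 0.33 (standard error 0.21, edgeR adjusted p = 0.37) in trisomic and 0.34 (standard error 0.21, edgeR adjusted p = 0.499) in duplication mice. Mrap2, an accessory protein of melanocortin receptors, had 0.50 (standard error 0.22, edgeR adjusted p = 0.181) in trisomic and 0.41 (standard error 0.23, edgeR adjusted p = 0.444) in duplication mice. The other tested genes of that list lay below 0 in both genotypes. Pomc had -0.24 (standard error 0.62) in trisomic and -1.52 (standard error 0.69) in duplication mice. Atrn had -0.07 in trisomic and -0.06 in duplication mice, and Mgrn1 -0.07 in trisomic and -0.08 in duplication mice.

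**Figure D3:**
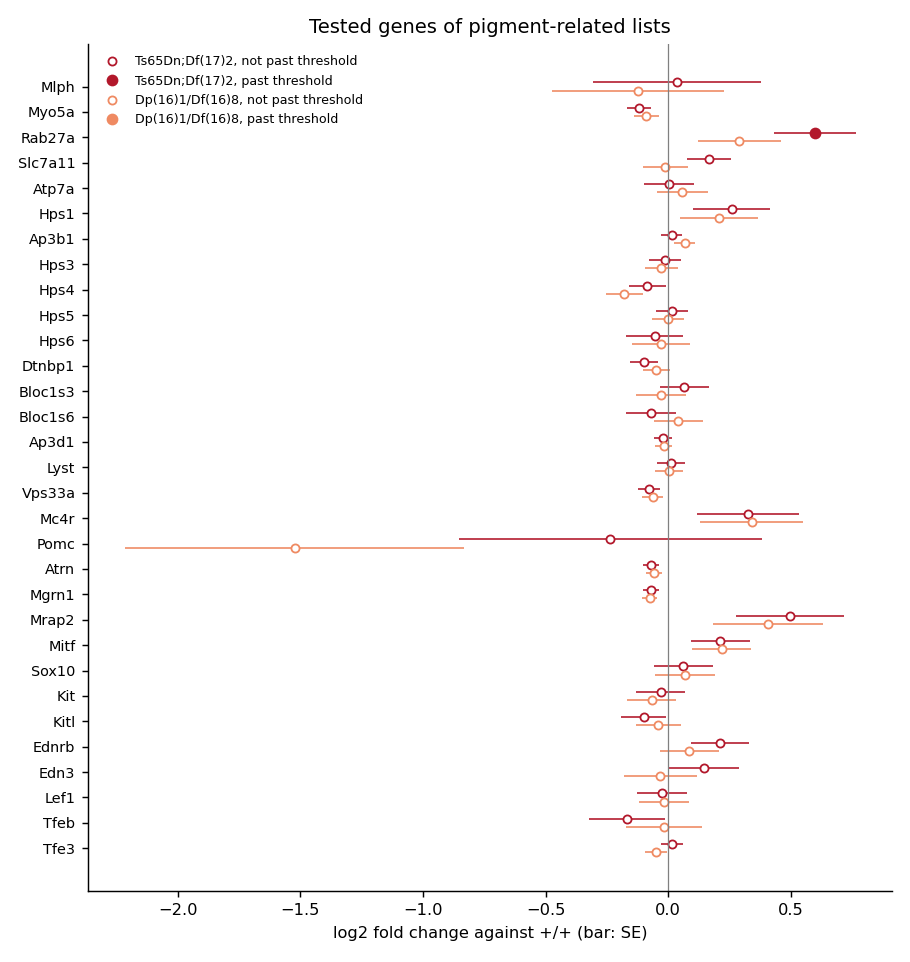
Log2 fold changes against +/+ of the tested genes of 5 pigment-related lists, in Ts65Dn;Df(17)2 (dark red) and in Dp(16)1/Df(16)8 (orange), with bars for the standard error and filled points past the adjusted p threshold of 0.05. Rab27a in trisomic mice (0.60) is the single filled point, and Pomc has the widest bars.

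Of the 3 genes whose parts are used in engineering vectors, 2 were abundant enough to test and neither passed, and Krt14, with the counts given above, was not tested. Among all tested genes, 3.97% passed in trisomic and 0.573% in duplication mice. A promoter or a part of a gene need not add reads to the exons counted. These values therefore do not show whether vector parts are present, which was not tested. Hprt, the purine salvage enzyme on the X chromosome, averaged 79.8 ± 4.5 CPM in trisomic (SD, n = 10), 82.3 ± 5.01 CPM in duplication (n = 10) and 76.3 ± 4.98 CPM in +/+ mice (n = 12). Its log2 fold change was 0.06 (standard error 0.04, edgeR adjusted p = 0.344) in trisomic and 0.11 (standard error 0.04, edgeR adjusted p = 0.241) in duplication mice against +/+. The glycolytic enzyme gene Pgk1 averaged 114.2 ± 6.69 CPM in trisomic (SD, n = 10), 119.5 ± 5.6 in duplication (n = 10) and 119.5 ± 6.7 in +/+ mice (n = 12), with an edgeR adjusted p of 0.248 in trisomic and 1 in duplication mice.

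Genes beside Tyr on chromosome 7 were not called. Within 1 Mb to each side of its start, a window chosen with the values known, 8 genes were tested, and 0 passed the threshold in either aneuploid genotype. Over all tested genes, 3.97% passed in trisomic and 0.573% in duplication mice, so that 0 of 8 is near the general share. All 8 log2 fold changes were above 0, from 0.12 to 0.34 in trisomic mice (median 0.18) and from 0.04 to 0.36 in duplication mice (median 0.15). Gm44926, Gm44927, Gm44848, Gm44847 and Gm44846 are among them, starting 279.1 to 625.6 kb from the start of Tyr, on the side of Grm5. The 8 values need not be independent, since overlapping genes cannot be told apart without a known strand setting. The nearest tested neighbour, the glutamate receptor gene Grm5, averaged 533.0 ± 36.4 CPM in trisomic (SD, n = 10), 518.7 ± 79.7 CPM in duplication (n = 10) and 463.5 ± 87.9 CPM in +/+ mice (n = 12). Its log2 fold change was 0.20 (standard error 0.09, edgeR adjusted p = 0.178) in trisomic and 0.16 (standard error 0.09, edgeR adjusted p = 0.447) in duplication mice. Its ranges overlapped between genotypes.

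Around a on chromosome 2 the same window was set on the annotated start of the gene, 154791402. That start lies upstream of the promoter window shown for a, with the start of Raly at -0.306 kb from it. The window held 25 tested genes. Of these, 4 (16%) fell and 0 rose in Ts65Dn;Df(17)2, where 3.97% of all tested genes passed, and 1 (4%) fell in Dp(16)1/Df(16)8, where 0.573% passed. In trisomic mice the calcium-binding protein gene Necab3 had a log2 fold change of -0.49 (edgeR adjusted p = 0.0306) and the zinc finger gene Zfp341 one of -0.38 (0.0151). The GPI transamidase subunit gene Pigu had -0.25 (edgeR adjusted p = 0.0488) and the gamma-glutamyltransferase family gene Ggt7 had -0.20 (0.0399) in the same mice. Ggt7 was also the gene that fell in duplication mice (-0.26, edgeR adjusted p = 0.0143). The others had log2 fold changes of -0.47 (Necab3), -0.24 (Zfp341) and -0.14 (Pigu) there, not past the threshold. Zfp341 averaged 9.16 ± 1.07 CPM in trisomic (SD, n = 10), 10.1 ± 1.36 CPM in duplication (n = 10) and 11.9 ± 1.75 CPM in +/+ mice (n = 12), and its call ended with the striatal score as a term (edgeR adjusted p = 0.0835). Necab3, Pigu and Ggt7 were not read out with that term or under the other alternatives. Raly, which overlaps a, had log2 fold changes of -0.09 (standard error 0.06, edgeR adjusted p = 0.401) in trisomic and -0.05 (standard error 0.06, edgeR adjusted p = 0.731) in duplication mice.

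**Figure D4:**
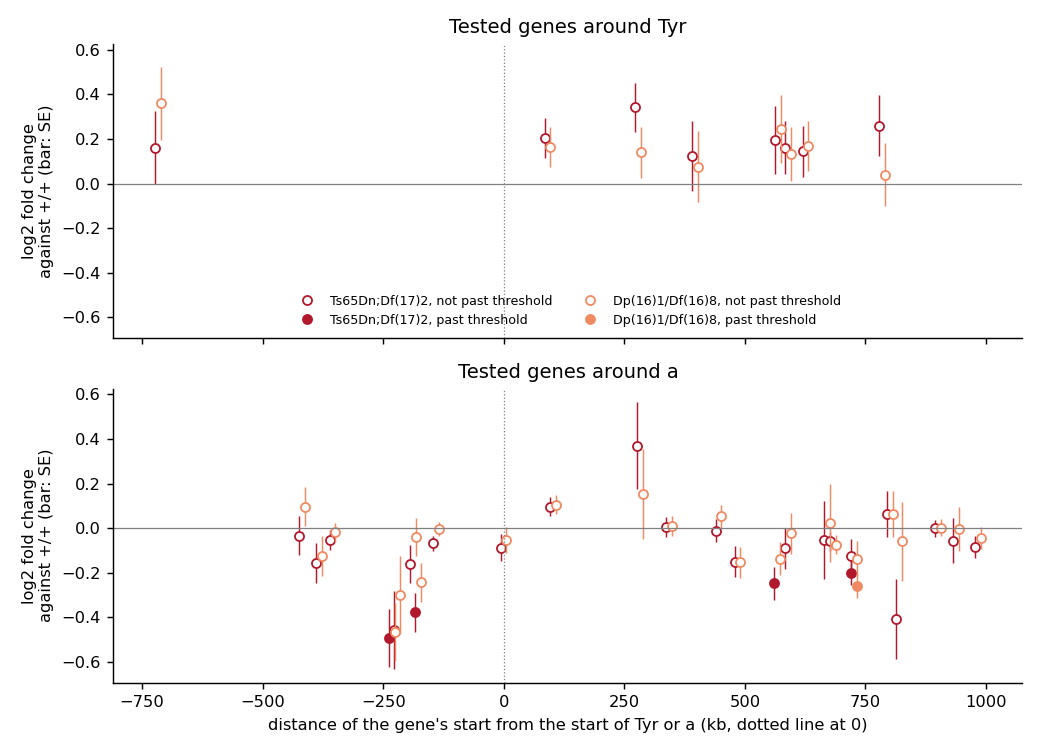
Log2 fold changes against +/+ of tested genes within 1 Mb of the annotated gene start of Tyr (top) or a (bottom), by distance in kb. Ts65Dn;Df(17)2 is dark red and Dp(16)1/Df(16)8 orange, with bars for the standard error and filled points past the threshold. Around Tyr no point is filled and all lie above 0, though neighbouring values need not be independent. Around a, 4 points are filled in trisomic and 1 in duplication mice, all below 0.

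The 5 genes whose levels were most like Tyr over the 32 libraries lay on chromosomes 16 and 17. By the Pearson correlation of log2 CPM with 16041 other tested genes they were C87487 (r = 0.96), Gm49806 (0.95), A730009L09Rik (0.85), Pisd-ps2 (0.84) and Gm21926 (0.82). The points share genotype and depth, and Tyr was chosen on its counts by genotype, so r is a description. C87487, a long non-coding RNA gene at chr17:9189126-9223664, had 13 to 29 counts with a median of 21 in trisomic libraries, 0 to 2 in duplication libraries and 0 to 1 in +/+ libraries. Gm49806, annotated as a transcript still to be established by experiment at chr17:9246550-9248548, had 15 to 44 counts with a median of 29.5 in trisomic libraries, 0 to 1 in duplication libraries and 0 to 1 in +/+ libraries. As with Tyr, every trisomic library was above every other library for both genes. Pisd-ps2 (chr17:3076578-3084183) and Gm21926 (chr17:3103175-3114795) are pseudogenes near the centromeric end of chromosome 17, whose counts are uncertain because near-identical copies can share their reads, and A730009L09Rik lies at chr16:84515121-84523888. The summed counts of Pisd-ps2 were 716 in trisomic, 370 in duplication and 411 in +/+ libraries. Those of Gm21926 were 1651 in trisomic, 791 in duplication and 1016 in +/+ libraries, and those of A730009L09Rik were 204 in trisomic, 51 in duplication and 30 in +/+ libraries.

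The genes most like a were another set. Among 19915 other genes with at least 50 counts in all, they were the kinase gene Dyrk1a (r = 0.85), the chaperonin subunit gene Cct8 (0.85), the ubiquitin ligase gene Ttc3 (0.84), the deubiquitinase gene Usp16 (0.83) and the interferon receptor gene Ifnar1 (0.83). All 5 lie on chromosome 16 between 87454703 and 94695517, in the region with an added copy in both aneuploid genotypes. Here too r describes libraries that share genotype and depth, and a was at 0 in every +/+ library. Since a was chosen for counts in aneuploid and not in +/+ libraries, a likeness to genes raised in both aneuploid genotypes follows from the choice.

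**Figure D5:**
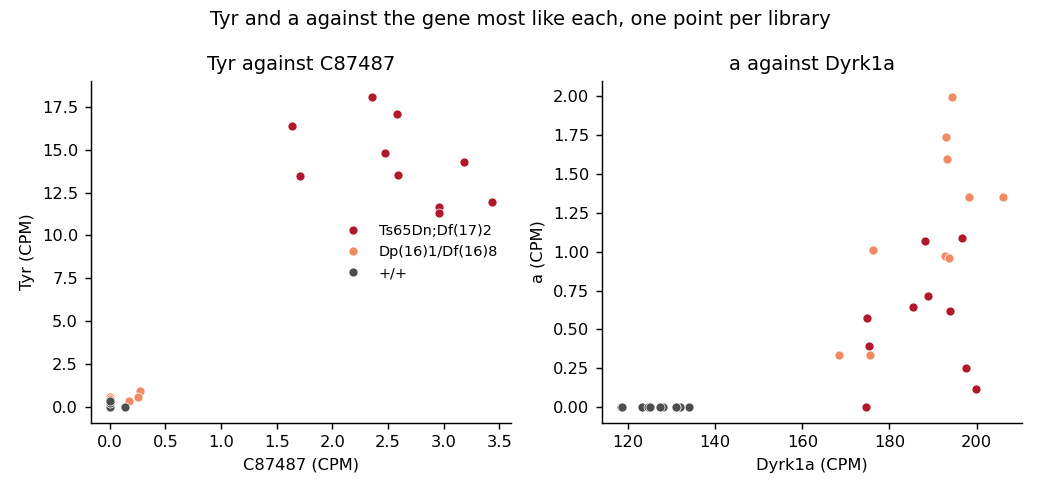
CPM of Tyr against C87487 (left) and of a against Dyrk1a (right), both axes linear, with 1 point per library coloured by genotype. The 10 Ts65Dn;Df(17)2 libraries lie apart from all others for Tyr (at least 11.3 CPM), while the 12 +/+ libraries lie on the zero line for a.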

How the data were processed

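Counts per gene, whole numbers with no normalization, were deposited by the authors for 32 cortex libraries, and all 32 columns were used. Per the labels' protocols, total RNA was extracted with a miRNeasy kit and freed of ribosomal RNA. Per the submitters' processing notes, the tools were STAR 2.7.9a, bcl2fastq 2.20 and, in Subread 1.6.4, featureCounts, and the builds named are GRCh38 and GRCm38.p6. Strand setting, annotation release and what each build was used for are not given in the sources used here, so overlapping genes cannot be told apart and near-identical copies are uncertain.

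Coordinates were matched by gene ID to the GRCm38 annotation for 55141 of 55401 genes. In edgeR 4.0.16 (R 4.3.3), filterByExpr by genotype (minimum count 10) kept 16042 genes with 99.7% of the counts, and TMM factors scaled the libraries. One quasi-likelihood model over the 32 libraries had terms for genotype and sex. Every edgeR p is from its quasi-likelihood F test, adjusted over all tested genes by Benjamini-Hochberg, with a threshold of 0.05, and standard errors are derived from the log2 fold change and F. CPM use TMM-scaled library sizes, and log2 CPM a prior count of 2. Sex was tested within genotypes by a contrast of genotype and sex means or, for a, by exact permutation. Ratios of summed counts have exact binomial intervals, which leave out the spread between mice, and a group at 0 was given a floor of 3 counts. The model was tested on simulated data.

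The members and lists were chosen with earlier results of these data known. Named genes are the 8 members, listed genes past the threshold, neighbours of Tyr and a, vector genes, genes present in a genotype and absent in +/+ like Tyr, and the 5 genes most like Tyr and a. Mc4r, Mrap2, Pomc, Atrn, Mgrn1, Rlbp1, Necab3, Pigu and Ggt7 were named after their values were seen. Alternatives were no filter, RLE size factors, no sex term, DESeq2 1.42.0, a striatal marker score as a term, and leaving out the library against its sex label, the low-numbered mice or, for sex, each library. Promoter windows are from RefSeq (GRCm38.p6).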

Additional observations from a re-analysis of the deposited data

Results flagged for a closer look

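In 20 groups of 10 libraries (the 8 members, C87487 and Gm49806, each in both aneuploid genotypes), the gap between an extreme library and its nearest neighbour was compared with the group's range. Chance flags about 1 in 20 groups where values are normally distributed. Counts near 0 are not, so that rate does not hold for them. Tyr in Dp(16)1/Df(16)8 replicate 3 stood at 0.936 CPM (7 counts), above the next library at 0.624 CPM. Tyrp1 in Ts65Dn;Df(17)2 replicate 6 stood at 0.917 CPM (7 counts), above the next at 0.378 CPM. Tyrp1 in Dp(16)1/Df(16)8 replicate 6 stood at 0.289 CPM (2 counts), above the next at 0.112 CPM, and Oca2 in Dp(16)1/Df(16)8 replicate 10 at 1.35 CPM (8 counts), above the next at 0.614 CPM. Each rests on 8 counts or fewer.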

How the results depend on the processing

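The mean CPM of Tyr and a kept their values within the replicate spread under no filter, RLE size factors and leaving out the library against its sex label or the low-numbered mice. The number of genes past the threshold in Ts65Dn;Df(17)2 against +/+ was 637, and became 331 with no filter, 280 without the low-numbered mice, 149 with the striatal score as a term and 1069 by DESeq2. In Dp(16)1/Df(16)8 against +/+ it was 92, and 145 by DESeq2. The log2 difference of Mitf between Ts65Dn;Df(17)2 and Dp(16)1/Df(16)8, -0.005, turned to 0.037 without the library against its sex label and to 0.022 without the low-numbered mice, never past the threshold. The log2 difference of Tyr between males and females ranged from -0.045 to 0.13 in Ts65Dn;Df(17)2, below 0 without replicate 4, 6 or 7, and from 0.04 to 0.47 in Dp(16)1/Df(16)8 when libraries were left out in turn. Rab27a lost its call at log2 fold changes of 0.60 (no filter), 0.53 (without the low-numbered mice) and 0.50 (striatal score), and Zfp341 at -0.35 (striatal score). The causes of these changes were not tested. At these depths, members other than Tyr and Mitf gave at most 16 counts per library, so that their differences rest on few counts. The smallest difference that could be detected was not computed. No paired analysis was possible because replicate numbers only name libraries within a genotype.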
